A study of Mus musculus with 8 samples.

Results

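The 10 genes described here belong to 3 groups of microtubule and tubulin-binding proteins: the stathmins Stmn1, Stmn2, Stmn3 and Stmn4, doublecortin (Dcx) with its kinase relatives Dclk1 and Dclk2, and the collapsin response mediators Crmp1, Dpysl2 and Dpysl3. They were chosen by name from the 31053 genes listed, and all 10 had molecules in both libraries, beside 20035 genes detected in Control and 20418 in TBI. In 12 cell classes of the mouse dentate gyrus, defined by markers that left these genes out, Dcx, Dclk2, Crmp1 and Dpysl3 were highest in neuroblasts in both libraries, Dclk2 with an interval that overlapped that of a progenitor class. Stmn1 was highest in dividing progenitors, Stmn4 in oligodendrocytes and Dclk1 in astrocytes. Stmn3 was highest in Reln neurons and Dpysl2 in oligodendrocytes, but in Control the intervals of late neuroblasts and of oligodendrocyte precursors overlapped theirs. In neuroblasts, no member differed by 1.5-fold between the libraries, where 4.71% of genes were that far above Control and 6.09% below.

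Stathmins bind free tubulin and favour the loss of microtubules, and Stmn1 is the form widely found in dividing cells, while Stmn2, Stmn3 and Stmn4 are best known from neurons. Doublecortin binds and stabilises microtubules in migrating young neurons and is the standard marker of neuroblasts in the adult dentate gyrus, and Dclk1 and Dclk2 join a doublecortin-like region to a protein kinase. Collapsin response mediators bind tubulin and act in axon growth and guidance downstream of semaphorin 3A, and Dpysl2 and Dpysl3 are also known as CRMP2 and CRMP4.

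The cells came from 8-week-old Nestin-GFP mice, in which control elements of the nestin gene drive the reporter. Control mice had a sham craniotomy and TBI mice a unilateral controlled cortical impact, and 15 days later the dentate gyri on the operated side were pooled by condition (the labels list 4 animals for each, while the study's methods give larger numbers for the pools), and GFP-positive cells were sorted and captured for 3' sequencing. The sort, and not the tissue alone, therefore set which cells could be seen. Each condition was 1 library, so values are given side by side, with exact 95% intervals that cover counting error only, and no difference between Control and TBI could be tested.

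After filtering, 3049 Control cells (median 6928 molecules, counted as unique molecular identifiers or UMIs) and 5036 TBI cells (median 5663) remained, and both libraries held 3 barcodes in common. Early neuroblasts numbered 297 Control and 545 TBI cells, late neuroblasts 312 and 517, S-phase progenitors 81 and 73, and mitotic progenitors 88 and 100. Reln neurons numbered 29 and 85, astrocytes 810 and 744, oligodendrocyte precursor cells (OPC) 28 and 56, oligodendrocytes 569 and 1101, endothelial cells 292 and 654, mural cells 269 and 689, and microglia 38 and 89. A further class of 146 Control and 221 TBI cells met the radial glia-like (RG-like) marker list only slightly less well than the S-phase list and was led by Ung, Gpd1, Ccnd1 and Mcm3, so it is called the Ung/Mcm3 progenitors, with no cell type name. The neuroblast names rest on markers outside the family, and the levels of 2 of them describe that naming. Eomes, a factor of intermediate progenitors, stood at 707 Control and 673 TBI CPM in early neuroblasts against 130 and 130 in late ones, and Calb2, the calcium-binding protein of immature granule neurons, at 262 and 277 against 1737 and 1854. CPM here is UMIs of a gene per 1000000 UMIs of a class, with the nuclear RNA Malat1 left out. Eomes was also high in progenitors, with 738 Control and 663 TBI CPM in the Ung/Mcm3 class. S-phase progenitors had 568 and 564, and mitotic ones 475 and 571. Eomes thus describes early against late neuroblasts, and not early neuroblasts against progenitors. Cells called as doublets made up 1.21% of Control and 2.14% of TBI cells, and 16.5% of TBI Reln neurons.

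RefSeq start sites on GRCm38.p6 were used for 5 of the 10 genes, 8 in all. For the other genes none is shown here, which does not mean that RefSeq lacks one. The gene spans given below come from another annotation (GENCODE), so the Dcx and Crmp1 windows reach into the spans given for these genes. The 250 bases before the start are shown for the member by which neuroblasts are best known (Dcx), for 2 genes that followed it across classes with unlike promoter composition (Crmp1, Stmn3), and for the member highest in astrocytes (Dclk1). Capitals mark matches on either strand to the E-box words CAGATG and also CAGCTG, to the TATA-box word TATAAA and to the GC-box word GGGCGG, and overlapping matches run together.
Dcx, minus strand, chrX:143933220-143933469: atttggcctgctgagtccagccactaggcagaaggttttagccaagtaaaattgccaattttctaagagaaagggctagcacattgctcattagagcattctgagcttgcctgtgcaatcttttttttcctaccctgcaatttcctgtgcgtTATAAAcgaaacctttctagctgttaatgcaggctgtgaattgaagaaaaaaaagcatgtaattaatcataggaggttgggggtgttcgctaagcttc
Stmn3, minus strand, chr2:181314501-181314750: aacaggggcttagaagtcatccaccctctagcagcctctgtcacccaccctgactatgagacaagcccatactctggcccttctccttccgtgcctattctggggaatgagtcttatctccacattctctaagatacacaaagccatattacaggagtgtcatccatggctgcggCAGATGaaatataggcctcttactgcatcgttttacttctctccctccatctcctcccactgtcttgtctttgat
Crmp1, plus strand, chr5:37241808-37242057: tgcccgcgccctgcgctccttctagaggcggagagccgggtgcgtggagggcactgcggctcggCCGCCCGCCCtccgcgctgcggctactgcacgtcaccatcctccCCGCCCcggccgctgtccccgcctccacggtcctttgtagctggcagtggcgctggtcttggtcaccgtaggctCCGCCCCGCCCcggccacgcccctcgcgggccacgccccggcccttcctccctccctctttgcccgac
Dclk1, plus strand, chr3:55242114-55242363: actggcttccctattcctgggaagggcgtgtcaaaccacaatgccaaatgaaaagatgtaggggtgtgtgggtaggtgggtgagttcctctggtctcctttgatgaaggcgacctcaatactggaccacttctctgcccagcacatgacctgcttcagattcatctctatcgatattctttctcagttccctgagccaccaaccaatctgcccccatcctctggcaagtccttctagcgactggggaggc
The Dcx window held 1 TATAAA, found in 12.4% of all 32851 promoter windows, and the Stmn3 window 1 CAGATG, found in 14.4%. The Crmp1 window held 5 GGGCGG matches, a word present in 32.7% of windows, and the Dclk2 window held 2. Neither Dclk1 window held any of the words, and none of the 8 windows held CAGCTG, which 13.0% of all windows held. G and C made up 41.6% of the Dcx window, 48.8% of that of Stmn3 and 75.6% of that of Crmp1. A second start site gave 44.8% for Dcx and 59.6% for Crmp1.

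Stmn1 (GRCm38 chr4:134468320-134473843), the stathmin of dividing cells, was present at every step of the lineage. It stood at 5235 CPM in Control (5121 to 5351) and 5123 in TBI (4983 to 5265) in S-phase progenitors, and at 5135 and 5941 in mitotic progenitors. The order of these 2 classes changed between libraries, but both lay above early neuroblasts, at 4807 (4734 to 4880) and 4751 (4690 to 4813), with intervals apart in both libraries. Late neuroblasts followed at 3773 and 3900, again with intervals apart, and then the Ung/Mcm3 progenitors at 2933 and 2868 and Reln neurons at 2651 and 3092, whose order changed between libraries. Outside the lineage Stmn1 stayed high in oligodendrocytes, at 1886 and 1902 CPM, and was present in endothelial cells at 284 and 303. Astrocytes, by contrast, had 82.9 and 121 CPM, so neuroblasts pooled were 52.3-fold higher in Control (46.0 to 59.6) and 36.2-fold higher in TBI (31.7 to 41.5).

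**Figure D1:**
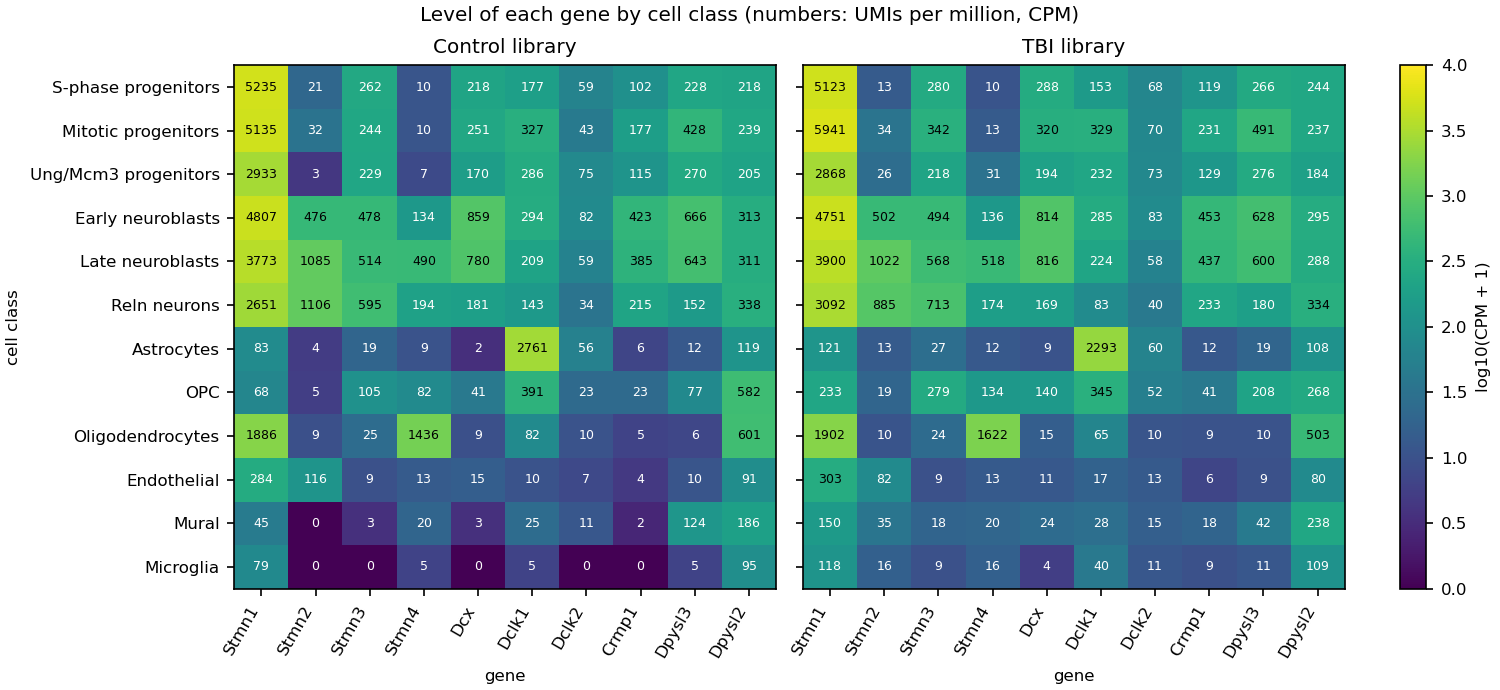
Heat maps of the level of each of the 10 genes (columns) in each of 12 cell classes (rows) in Control and TBI. Numbers are UMIs per 1000000 UMIs of the class and colour is log10(CPM + 1). The peaks differ by gene: Dclk1 in astrocytes (2761 and 2293), Stmn4 in oligodendrocytes (1436 and 1622), Dcx in neuroblasts (859 and 814 in the early class).

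Stmn2 (chr3:8509360-8561606), a stathmin anchored to membranes and placed at growth cones, separated neurons from progenitors. S-phase progenitors held 20.9 CPM in Control and 13.1 in TBI, and mitotic progenitors 32.2 and 34.1. Early neuroblasts held 476 (453 to 500) and 502 (482 to 522), and late neuroblasts 1085 (1048 to 1124) and 1022 (990 to 1055). Reln neurons had 1106 and 885, which was not set apart from late neuroblasts in Control and was below them in TBI, but was 1165 in TBI without the called doublets. Among the neuroblast clusters, the early cluster led by Tac2 and Mfng had 227 and 203 CPM and the early cluster led by Ebf1 and Tubb3 had 773 and 883. The late cluster led by Calb2 and Zfp385b had 1257 and 1144, and the late cluster led by Sema5a and Gal was lower again, at 852 and 890. The highest Stmn2 level among these 4 clusters was thus neither in the least nor in the most advanced of them by markers, in both libraries. A further cluster of the late class, led by Calb2 and Fabp3, is left out of the cluster orders here and below. It held 36 Control and 44 TBI cells, with a median of 3750.5 and 3125 UMIs and 14.3% and 14.0% mitochondrial UMIs.

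Stmn2 was also detected in endothelial cells, at 116 CPM in Control (98.5 to 135) and 81.7 in TBI (70.4 to 94.4). Most of it lay in the endothelial cluster led by Ly6c1 and Ly6a, with 246 and 171 CPM, where Dcx was at 0 and 4.19 and Stmn3 at 0 and 3.14. The endothelial cluster led by Ctla2a and Cldn5 had 45.3 and 1.5 CPM, that led by Slco1a4 and Itm2a 3.52 and 38.7, and that led by C130074G19Rik and Abcb1a 155 (from 4 UMIs) and 0. Called doublets held 18 of the 158 Control and 21 of the 185 TBI endothelial UMIs of Stmn2, and without them the class stood at 108 and 77.2 CPM. After every cell was thinned to 2000 UMIs, 9.16% of Control and 7.38% of TBI endothelial cells had a Stmn2 UMI, against 0.568% and 0.714% of oligodendrocytes, which were deeper (median 10169 and 8263 UMIs against 4525 and 3533.5 before thinning).

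Stmn3 (chr2:181306459-181314500), a further neuronal stathmin, rose less steeply than Stmn2. It was present in all 3 progenitor classes, from 229 to 262 CPM in Control and from 218 to 342 in TBI. Early neuroblasts had 478 (455 to 501) and 494 (474 to 514), late neuroblasts 514 (488 to 541) and 568 (544 to 593), and Reln neurons 595 (501 to 702) and 713 (643 to 789). Late neuroblasts were not set apart from early ones in Control, whereas the intervals were apart in TBI. OPC had 105 and 279 CPM, and the other glial and vascular classes had at most 27.1.

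Stmn4 (chr14:66344296-66361680), a stathmin described mainly in neurons, was highest in oligodendrocytes. They held 1436 CPM in Control (1405 to 1467) and 1622 in TBI (1595 to 1649), and after thinning 87.5% and 94.9% of them had a Stmn4 UMI, against 2.19% and 1.60% of astrocytes. Within oligodendrocytes it ran from 404 and 521 CPM in the cluster led by Sec14l5 to 1678 and 1996 in the cluster led by Serpinb1a and Pmp22. Stmn1 was also low in the Sec14l5 cluster, at 310 and 388. The median share of mitochondrial UMIs, which count in CPM, was 36.8% there and 7.6% in the Serpinb1a, Pmp22 cluster, and its part was not tested. In the lineage Stmn4 came late. S-phase and mitotic progenitors had 10.0 to 13.3 CPM in both libraries, early neuroblasts 134 and 136, and late neuroblasts 490 (465 to 516) and 518 (495 to 542). By cluster it went from 41.5 and 44.7 (Tac2, Mfng) to 244 and 253 (Ebf1, Tubb3), 461 and 469 (Calb2, Zfp385b) and 529 and 583 (Sema5a, Gal), so that, unlike Stmn2, it did not fall in the last cluster. The summed level of 8 oligodendrocyte markers in that last cluster was 1272 and 667 CPM, against 157 and 203 in the Calb2, Zfp385b cluster and 64101 and 69221 in oligodendrocytes, and its part in the Stmn4 level was not tested.

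**Figure D2:**
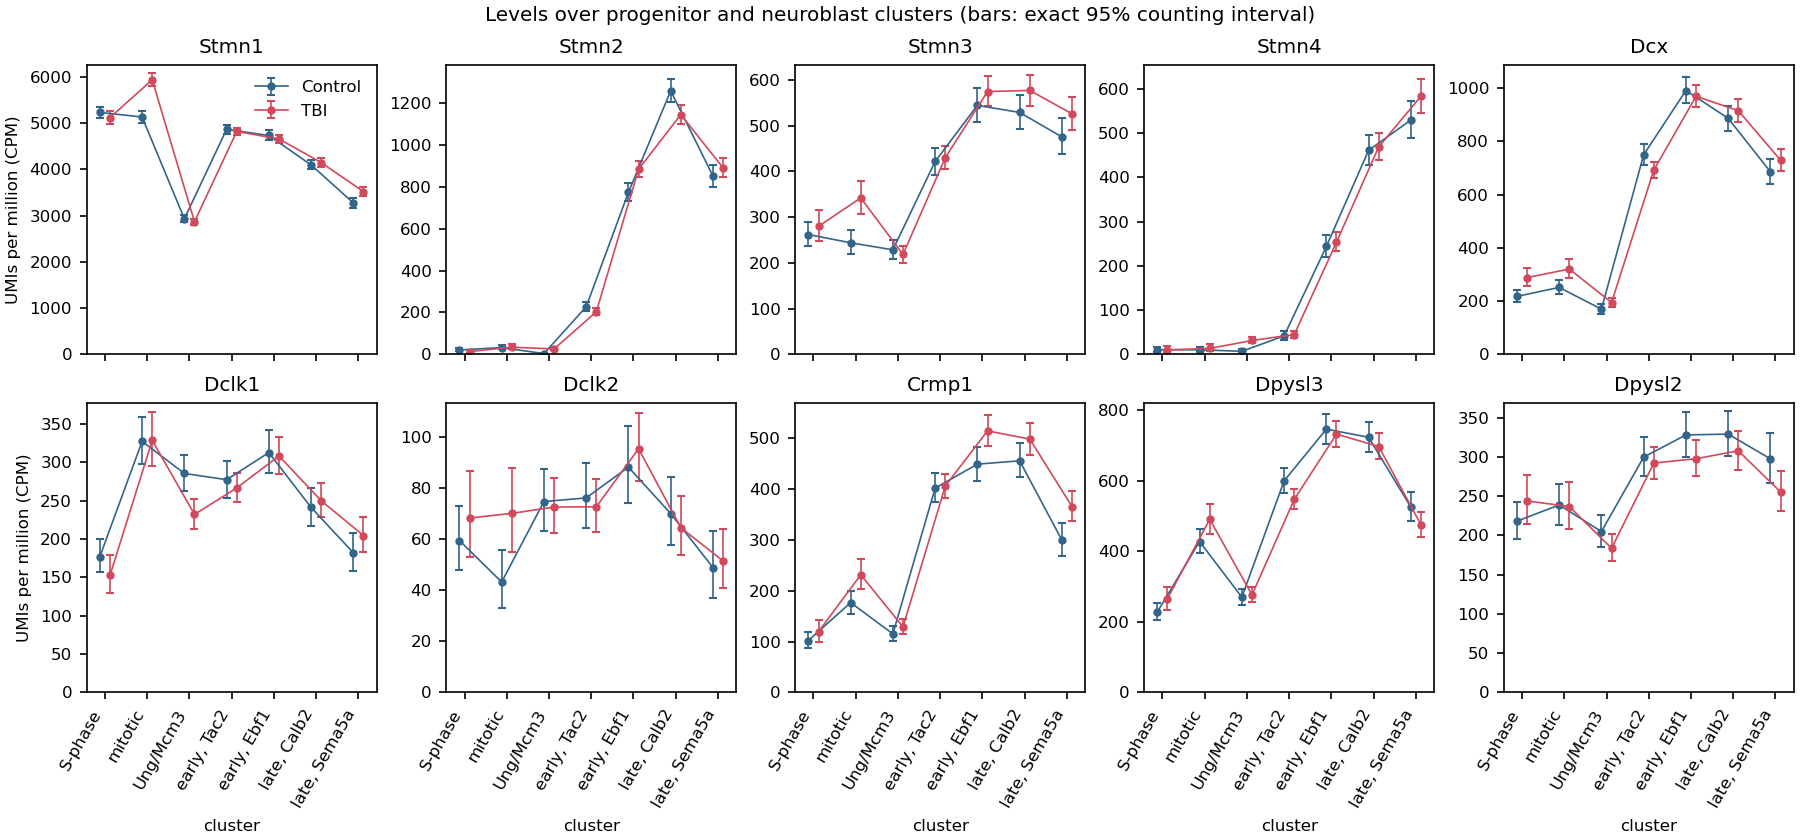
Members in progenitor classes and in neuroblast clusters ordered by their markers, in Control and TBI (UMIs per 1000000, with 95% Poisson intervals). The Calb2, Fabp3 cluster of the late class is left out. Stmn2 and Stmn4 start near 0 and climb, Stmn4 as far as the Sema5a, Gal cluster (529 and 583). Stmn1 is lower in that cluster (3275 and 3520) than in S-phase progenitors (5235 and 5123). Its course is not a steady decline, since the Ung/Mcm3 progenitors are lower still (2933 and 2868).

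Dcx (chrX:143855842-143933311) was present before the neuroblast stage and rose there. S-phase progenitors had 218 CPM in Control and 288 in TBI, mitotic progenitors 251 and 320, and the Ung/Mcm3 progenitors 170 (152 to 188) and 194 (178 to 213). Early neuroblasts had 859 (829 to 891) and 814 (789 to 839), and late neuroblasts 780 (748 to 812) and 816 (787 to 845). The early class was above the late class in Control, whereas their intervals overlapped in TBI. By cluster Dcx was 749 and 692 (Tac2, Mfng), 991 and 969 (Ebf1, Tubb3), 886 and 915 (Calb2, Zfp385b) and 685 and 729 (Sema5a, Gal). Over these clusters, with the Calb2, Fabp3 cluster left out, it rose and fell in both libraries. Reln neurons were well below the neuroblasts, at 181 and 169 CPM, and even these values came from few cells. All 43 Control UMIs lay in 5 of 29 cells, and 85 of the 89 TBI UMIs lay among the 14 called doublets of the 85 cells, so that without them the TBI level was 11.2 CPM (log2 ratio to Control -4.02, -5.96 to -2.56). Stmn2 and Stmn3 in the same TBI cells without doublets were 1165 and 788 CPM.

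At 2000 UMIs per cell, 81.0% of Control and 74.6% of TBI neuroblasts had a Dcx UMI, and so did 34.9% and 42.0% of mitotic progenitors. The share in astrocytes, a class not known for Dcx, was 0.505% and 1.07%, and the level of free RNA was not measured. Astrocytes were shallower (median 3306 and 2274 UMIs before thinning, against 11092 and 8465.5 in neuroblasts), and 594 of 810 Control and 374 of 744 TBI astrocytes had enough UMIs to be thinned. Dcx and Stmn2 were found together in 39.4% and 37.5% of early and 61.0% and 58.5% of late neuroblasts, while 45.5% and 36.9% of early neuroblasts had Dcx without Stmn2.

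Dclk1 (chr3:55242364-55539068), the doublecortin-like kinase best known from neurons and from tuft cells of the gut, was an astrocyte gene in these libraries. Astrocytes held 2761 CPM in Control (2700 to 2822) and 2293 in TBI (2224 to 2364), and 82.2% and 86.4% of thinned astrocytes had a UMI. Thinning kept 136 of 245 Control and 71 of 315 TBI cells of the cluster led by Chchd10 and Mt3, where Dclk1 was lowest. It kept 137 of 227 Control and 29 of 140 TBI cells of the cluster led by Syne1 and Atp13a4, where Dclk1 was highest in Control. Over all astrocytes, not thinned and so at unequal depth, 651 of 810 Control and 526 of 744 TBI cells had a Dclk1 UMI. The next classes were OPC with 391 and 345 CPM and mitotic progenitors with 327 and 329. Early neuroblasts had 294 and 285, late neuroblasts 209 and 224, oligodendrocytes 82.1 and 64.8, and endothelial and mural cells at most 28.1. Counts were given by gene, so the forms of Dclk1 could not be told apart.

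Within astrocytes Dclk1 differed from cluster to cluster. It was 315 (273 to 362) and 356 (306 to 412) CPM in the cluster led by Chchd10 and Mt3, 1324 and 1095 in that led by Sparc and Abca8a, 3152 and 3138 in that led by Agt and Ednrb, 4013 and 3617 in that led by Aqp4 and Hsd11b1, and 5084 (4889 to 5285) and 3542 (3301 to 3797) in that led by Syne1 and Atp13a4. The summed level of 10 astrocyte markers was not lowest where Dclk1 was lowest: it was 28049 and 27613 CPM in the Chchd10, Mt3 cluster and 18164 and 16899 in the Syne1, Atp13a4 cluster. Both clusters were shallow, with medians of 2131 and 1354 UMIs and of 2750 and 1958, against 5510 and 3931 in the Agt, Ednrb cluster. Their median mitochondrial shares were 13.0% and 12.0%, and 14.1% and 14.0%, against 6.33% and 5.70%. The part of depth and mitochondrial share in these levels was not tested.

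Dclk2 (chr3:86786151-86920852), the second doublecortin-like kinase, was low in every class. Early neuroblasts had 81.6 CPM (72.4 to 91.8) and 82.7 (74.8 to 91.1), the Ung/Mcm3 progenitors 74.7 and 72.6, late neuroblasts 59.0 and 57.9 and astrocytes 55.9 and 59.8. The first 2 of these were not set apart in either library. Oligodendrocytes had 9.52 and 10.2. Dclk3, the relative outside the list, had no UMI in neuroblasts of either library, where 3 counts would have been 0.472 and 0.349 CPM.

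Crmp1 (chr5:37241940-37292133), a mediator of semaphorin signalling, followed Dcx across classes with called doublets kept. Early neuroblasts had 423 CPM (402 to 445) and 453 (435 to 472), late neuroblasts 385 (363 to 408) and 437 (416 to 459), Reln neurons 215 and 233, and mitotic progenitors 177 and 231. Every glial and vascular class had at most 41.0. Dpysl3, known as a mediator of growth cone and actin dynamics in young neurons, had 666 (640 to 694) and 628 (606 to 651) in early and 643 (614 to 673) and 600 (575 to 625) in late neuroblasts, and the 2 classes were not set apart in either library. It was already at 428 and 491 in mitotic progenitors.

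Dpysl3 had a second site in mural cells, at 124 CPM in Control (105 to 146) and 42.2 in TBI (33.9 to 51.9). In Control, 142 of the 146 UMIs lay in the cluster led by Acta2 and Tagln, genes of smooth muscle, with 315 and 162 CPM in 51 and 40 cells. In TBI that cluster held 40 of 90 UMIs, and 42 lay in the cluster led by Atp13a5 and Tbx3os1 (0 and 215 CPM), while the pericyte clusters led by Atp13a5 and Vtn and by Kcnj8 and Hspa1a had at most 5.82. Called doublets held 42 of the 90 TBI mural UMIs of Dpysl3. They made up 11.9% of the cells of the Atp13a5, Tbx3os1 cluster, both libraries together. Without doublets, mural Dpysl3 was at 119 CPM in Control and 24.1 in TBI. Dpysl2 (chr14:66802864-66868688), the mediator linked to axon formation and tubulin assembly, was found in every class. Oligodendrocytes had 601 CPM (581 to 621) and 503 (488 to 518), OPC 582 and 268, not set apart from oligodendrocytes in Control, Reln neurons 338 and 334, early neuroblasts 313 and 295, and late neuroblasts 311 and 288. The lowest, endothelial cells, had 90.9 and 80.0 CPM. Mural cells had 186 and 238, from the pericyte clusters (289 and 282 in the Atp13a5, Vtn cluster) more than from the Acta2, Tagln cluster (48.9 and 85.3), the reverse of Dpysl3. Of the relatives outside the list, Dpysl5 was highest in late neuroblasts at 191 and 203 CPM, and Dpysl4 stood there at 79.1 and 89.6.

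Counted per cell at 2000 UMIs, the family overlapped most in neuroblasts. The median early neuroblast had 6 of the 10 members detected in Control and 5 in TBI, the median late neuroblast 6 in both, S-phase progenitors 3, mitotic progenitors 4, Reln neurons 4, oligodendrocytes 3, OPC 2 and astrocytes 1. At least 5 members were seen in 69.4% and 70.2% of early and in 79.5% and 86.2% of late neuroblasts, and in 0 of 594 Control and 0.535% of TBI astrocytes. Of genes with enough counts, 10.9% in Control and 10.7% in TBI were highest in a neuroblast class, and 4 of the 10 members in Control and 5 in TBI were. The fifth was Stmn2, which was highest in Reln neurons in Control, with an interval that took in the late neuroblast level, and in TBI without doublets (1165 CPM).

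**Figure D3:**
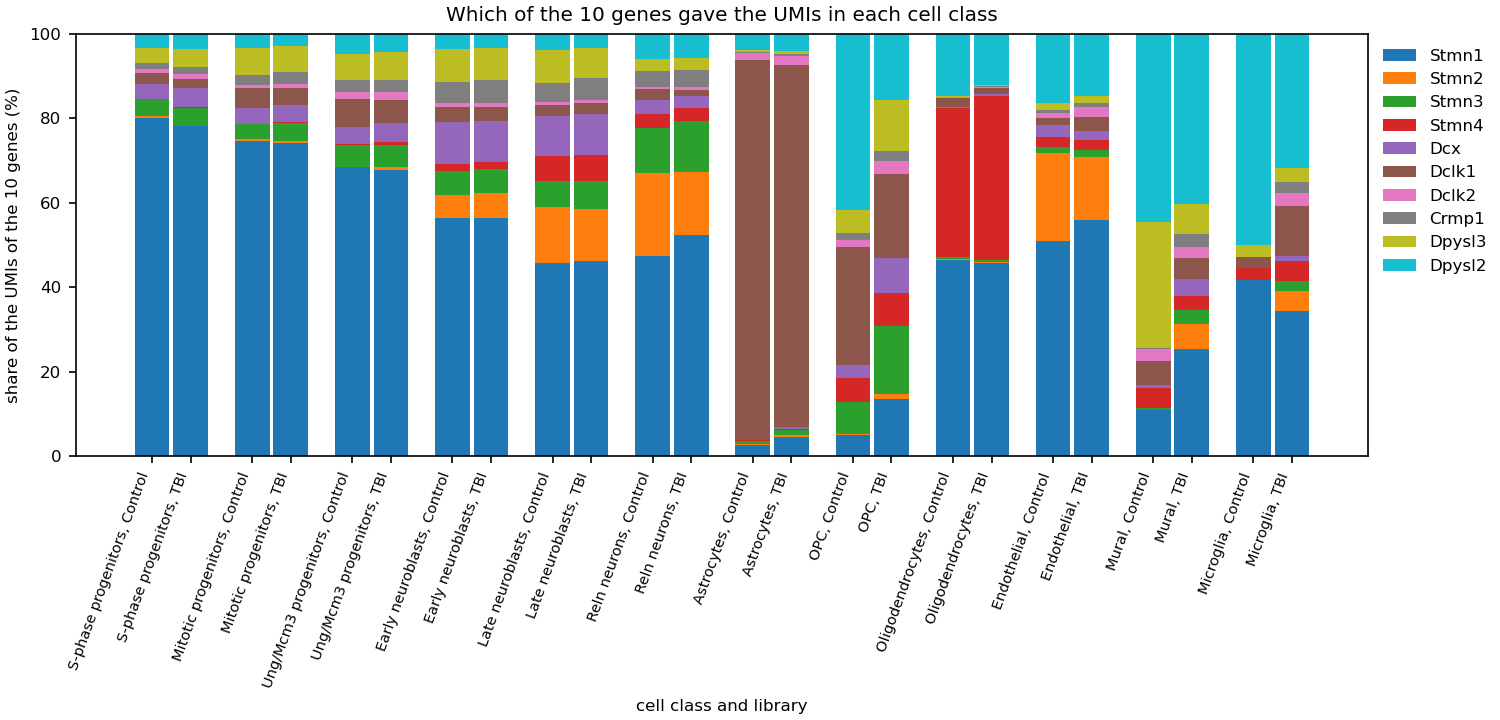
Share of the UMIs of the 10 genes taken by each gene in each cell class, Control and TBI (percent, uncorrected for capture of each gene). Stmn1 takes 80.2% and 78.0% in S-phase progenitors, Dclk1 89.9% and 85.7% in astrocytes, and Stmn4 35.3% and 38.9% in oligodendrocytes.

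The make-up of the family by UMIs differed between classes, and in some classes between libraries. Stmn1 took 80.2% of the members' UMIs in Control S-phase progenitors and 78.0% in TBI, 56.3% and 56.3% in early neuroblasts, 45.7% and 46.3% in late neuroblasts, and 2.70% and 4.53% in astrocytes. Stmn2 went from 0.320% and 0.199% in S-phase progenitors to 13.2% and 12.1% in late neuroblasts. In OPC the share of Dpysl2 was 41.7% in Control and 15.6% in TBI, and in mural cells that of Dpysl3 was 29.7% and 7.15%. Of the 128 Control OPC UMIs of Dpysl2, 86 lay in 5 of 28 cells.

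Across the 12 classes, Dcx and Crmp1 had levels with Pearson r of 0.98 in Control and 0.96 in TBI on the log2(CPM + 10) scale, and Dcx and Dpysl3 0.90 and 0.98. Stmn3 and Crmp1 had 0.97 and 0.94. Dclk1 and Dpysl2 had 0.30 and 0.02, and the least alike of all pairs of members were Stmn4 and Dclk2, at 0.03 and -0.11. These describe 12 points that share 1 library each, its depth and its cells. Called doublets were kept, and no correlation was computed without them. In TBI Reln neurons without doublets, Dcx was at 11.2 CPM and Crmp1 at 218. Outside the family, the genes most like Dcx in Control were Rnf165 (0.98, and 0.98 in TBI), Prr36 (0.98 and 0.97) and Clvs1 (0.98 and 0.94), and among those most like Dclk1 was Hacd3 (0.99 and 0.93). Stmn4 was closest to Jakmip3 (0.96 and 0.92), Stmn3 to Nsg2 (0.98 and 0.96), Crmp1 to B4galnt4 (0.99 and 0.96) and Stmn1 to the progenitor transcription factor gene Nfix (0.93 and 0.91).

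Whether injury changed the family in new neurons was asked in the 609 Control and 1062 TBI neuroblasts, with early and late classes pooled. Dcx stood at 823 CPM in Control and 815 in TBI (log2 ratio -0.01, interval -0.07 to 0.04), and Stmn1 at 4335 and 4386 (0.02, -0.01 to 0.04). The member furthest above Control was Crmp1, at 406 and 446, 1.10-fold (1.05 to 1.16). The furthest below were Dpysl2, at 312 and 292 (-0.10, -0.18 to -0.01), and Dpysl3, at 656 and 616 (-0.09, -0.15 to -0.03). Stmn2 stood at 754 and 725 (-0.06, -0.11 to -0.00) and Stmn3 at 494 and 525 (0.09, 0.02 to 0.16), and the intervals of Stmn4, Dclk1 and Dclk2 took in equal levels. None of the 10 was 1.5-fold apart, where 4.71% of 13241 genes were at least 1.5-fold above Control and 6.09% at least 1.5-fold below. For 5 members the counting interval left out equality, but that interval holds no spread between animals.

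**Figure D4:**
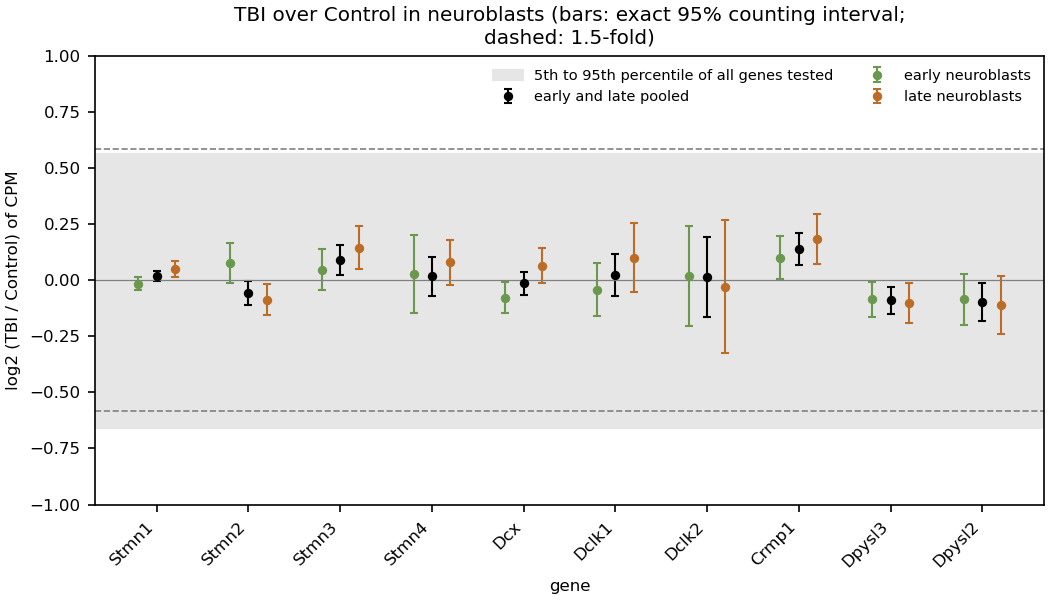
TBI to Control log2 ratio of each member in pooled neuroblasts with its exact 95% counting interval, and the same for early and late neuroblasts apart. The grey band runs from the 5th to the 95th percentile of all genes tested and the dashed lines mark 1.5-fold, and all 10 pooled points lie between -0.10 (Dpysl2) and 0.14 (Crmp1).

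Of 45 other microtubule genes (a list of microtubule-associated, plus-end, severing and motor-adaptor genes with the kinases that act on them), 43 had enough counts in neuroblasts, none was 1.5-fold apart, and their median log2 ratio was 0.07. Tubulin-stabilising Mapt was at 309 and 329 CPM there, Map1b at 704 and 761, Map2 at 593 and 663 and Pafah1b1, the dynein regulator that acts with doublecortin in neuronal migration, at 305 and 346. These genes were spread over classes too: 28 of the 45 had the same highest class in both libraries, which was oligodendrocytes for 10, Reln neurons for 4, mitotic progenitors for 4 and late neuroblasts for 4. Mapt was one of those highest in oligodendrocytes, at 1330 and 1294 CPM, as Stmn4 was.

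Over the 12 classes, 112 pairs of member and class had at least 10 UMIs, and 26 of them were at least 1.5-fold above Control and 4 at least 1.5-fold below. In 18 and 3 of these the counting interval left out equality. By class, the share of all genes that far above Control ran from 5.22% (late neuroblasts) to 24.2% (OPC). The share that far below ran from 5.64% (Ung/Mcm3 progenitors) to 18.1% (microglia). These shares are from all cells of a class, and none was computed with doublets removed. All 30 pairs lay outside the neuroblasts: early neuroblasts had none, where 5.66% of genes were above and 6.14% below, and late neuroblasts none, where 5.22% were above and 7.59% below. The called doublets bore on many of the 30: with them removed and the classes kept, 17 of the 26 and all 4 remained past 1.5-fold, 9 and 3 with an interval that left out equality. Without doublets, 5 other pairs were past 1.5-fold below Control (Dcx, Dclk2 and Dpysl3 in Reln neurons and Dclk1 in mural and endothelial cells) and 3 others above (Dcx in endothelial cells, Stmn4 in mural cells and Stmn1 in microglia), and of these 8 the interval of Dcx in Reln neurons alone left out equality.

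OPC had the most, with 7 of 9 tested members above Control, where 24.2% of 8473 genes were. Stmn1 had 68.2 CPM in Control and 233 in TBI (log2 ratio 1.77, 0.97 to 2.67), Dcx 40.9 and 140 (1.77, 0.73 to 2.98), Dpysl3 77.3 and 208 (1.43, 0.66 to 2.28) and Stmn3 105 and 279 (1.42, 0.75 to 2.14). Stmn4 (0.71), Dclk2 (1.19) and Crmp1 (0.85) had intervals that took in equality. Dpysl2 went the other way, from 582 to 268 CPM (-1.12, -1.51 to -0.73), where 16.8% of genes were that far below. For Stmn1, 5 cells held 84.7% of the 85 TBI UMIs and 80.0% of the 15 Control UMIs. The TBI UMIs of the others were less concentrated: 5 cells held 49.0% for Dcx (22 cells with a UMI), 43.4% for Dpysl3 (29 cells) and 37.3% for Stmn3 (30 cells). In Control, 5 of 28 cells held all 9 UMIs of Dcx, 18 of 23 for Stmn3 and 11 of 17 for Dpysl3. For Dpysl2, 5 cells held 86 of the 128 Control and 39 of the 98 TBI UMIs. No OPC was called as a doublet. The median mitochondrial share was 9.83% in Control OPC and 4.6% in TBI OPC. Markers of other cells moved with them. The summed level of 8 oligodendrocyte markers was 23292 CPM in Control OPC and 5601 in TBI OPC (7 of 8 lower in TBI). That of 7 early neuroblast markers was 50.0 and 460 (5 of 7 higher). Of the 8 OPC markers, Pdgfra was at 636 and 1037 and Gpr17 at 1223 and 1568, and the others are not given here. The part of these differences in the members' values was not tested. Of the 45 microtubule genes, 16 were at least 1.5-fold lower and 4 higher in TBI OPC, of 40 tested.

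The Ung/Mcm3 progenitors had 2 members above Control, where 8.32% of genes were. Stmn2 had 3.44 CPM in Control (7 UMIs in 3 cells) and 25.7 in TBI (64 UMIs in 13 cells), a log2 ratio of 2.90 (1.77 to 4.27). In TBI, 5 cells held 87.5% of these UMIs and none was a called doublet. Stmn4 had 6.88 and 31.3 CPM (2.18, 1.35 to 3.12). Of its 78 TBI UMIs, 43 lay in 5 called doublets, and without them the ratio was 1.16 (0.20 to 2.20). All 8 oligodendrocyte markers were higher in TBI in this class, with a summed level of 157 and 858 CPM, and their part in the Stmn4 value was not tested. Thinned, 0 of 146 Control cells (a count that allows up to 2.49%) and 1.81% of TBI cells of this class had a Stmn2 UMI. The remaining 8 members were within 1.5-fold, with none below where 5.64% of genes were, and Stmn1 was at 2933 and 2868 CPM.

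In mural cells 5 members were above Control, where 14.8% of genes were, and Dpysl3 was below, where 10.2% were. Stmn1 had 45 CPM in Control and 150 in TBI (1.74, 1.32 to 2.19), but 222 of the 320 TBI UMIs lay in 16 called doublets, and without them the ratio was 0.60 (0.04 to 1.19). Stmn2 had no UMI in Control and 75 in TBI, which is at least 13.8-fold higher against a floor of 3 Control counts. Of those 75, 69 lay in the doublets. Dcx went from 2.54 to 24.4 CPM (3.26) and Stmn3 from 2.54 to 18.3 (2.84), and without doublets the ratios were -0.07 and -0.80. Crmp1 had 1.70 and 18.3 CPM (3.43, with an interval above 0), and 2.37 (-0.49 to 7.82) without doublets. The high TBI values sat in 1 cluster of 18 Control and 83 TBI cells, led by Atp13a5 and Tbx3os1, with Stmn1 at 64.1 and 1161 CPM, and the summed level of 7 late neuroblast markers in mural cells was 37.3 and 156 CPM (7 of 7 higher in TBI), whose part was not tested. Dpysl3 fell by 1.55 on the log2 scale (-1.95 to -1.16), and by 2.31 without doublets. The Acta2, Tagln cluster was 51 of 269 Control mural cells and 40 of 689 TBI mural cells.

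**Figure D5:**
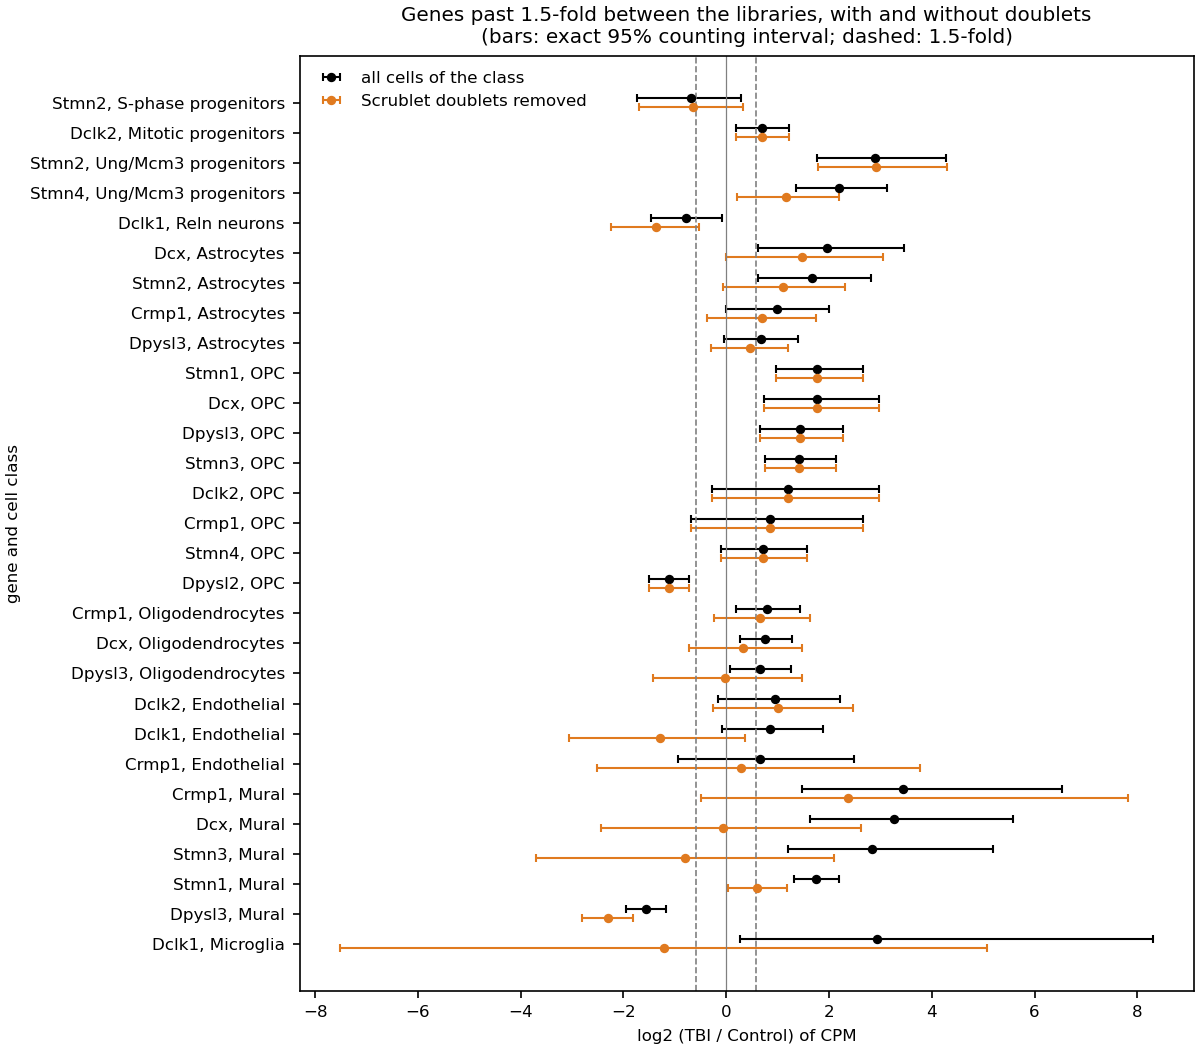
Log2 TBI to Control ratio of the members past 1.5-fold outside neuroblasts (rows, Stmn2 in mural cells left out because Control had no UMI), with all cells and with called doublets left out of the same classes, with exact 95% counting intervals. Dcx in mural cells goes from 3.26 to -0.07 and Stmn2 in the Ung/Mcm3 progenitors from 2.90 to 2.92.

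In astrocytes Dcx, Stmn2, Crmp1 and Dpysl3 were above Control, where 5.5% of genes were, all of them at low levels, and none was below, where 8.56% were. Dcx was at 2.43 and 9.41 CPM (7 and 17 UMIs, log2 ratio 1.95, 0.61 to 3.47) and Stmn2 at 4.16 and 13.3 (1.67, 0.62 to 2.81), and without the 2 called doublets the ratios were 1.47 (0.00 to 3.05) and 1.10 (-0.07 to 2.31). The summed level of 7 late neuroblast markers in astrocytes was 22.6 and 49.3 CPM, with 5 of 7 higher in TBI, and its part was not tested. In oligodendrocytes Dcx (8.64 and 14.7 CPM, 0.76), Crmp1 (0.79) and Dpysl3 (0.65) were above Control, where 6.78% of genes were, and without doublets the ratios were 0.33, 0.66 and -0.02, of which Crmp1 alone stayed past 1.5-fold. Most of these UMIs lay in the cluster led by Ptgds and Il33, which was 35 of 569 Control and 200 of 1101 TBI oligodendrocytes and in which 13.6% of cells were called doublets. It held 37 of the 49 Control and 102 of the 127 TBI UMIs of Dcx, and within it the ratios went the other way, at -0.83 for Dcx (-1.38 to -0.24), -1.12 for Dpysl3 (-1.78 to -0.42) and -0.74 for Crmp1 (-1.58 to 0.18). Mitotic progenitors had 1 member above Control, Dclk2 (43.2 and 70.1 CPM, 0.70, 0.18 to 1.22), where 8.78% of genes were, and none below, where 10.6% were. S-phase progenitors had 1 below, Stmn2 (-0.68, -1.73 to 0.29), where 8.8% were, and none above, where 9.38% were.

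Dclk1 in Reln neurons went from 143 to 83.4 CPM (34 and 44 UMIs, log2 ratio -0.78, -1.46 to -0.09), where 14.9% of genes were that far below, and without the 14 called doublets among the 85 TBI cells it was at 55.9 CPM (-1.36, -2.24 to -0.52). No Control Reln neuron was called a doublet, so their removal changed the TBI value only. Of the 34 Control UMIs, 27 lay in 5 of 29 Reln neurons, with 14 in 1 cell. Dpysl3 there was at 152 and 180 CPM, and at 101 in TBI without doublets (-0.60, -1.30 to 0.11). With all cells, the summed level of 6 endothelial markers in this class was 54.9 and 817 CPM and that of 8 mural markers 88.6 and 956 CPM. Endothelial cells had 3 members above Control (Dclk1 0.85, Dclk2 0.96, Crmp1 0.65), where 8.88% of genes were, and none below, where 6.56% were. Each of the 3 intervals took in equality, and Dclk1 turned to -1.29 without doublets. In microglia, 3 members had 10 UMIs, and Dclk1 was above Control, where 18.2% of genes were, with 1 and 18 UMIs, 17 of the 18 in 1 called doublet. In a shallow cluster left without a name, led by Sema5a and Camk2b, 6 of the 10 members were above Control, where 51.1% of genes were, and none below, where 7.09% were.

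Dclk1 was the 1 member past 1.5-fold when all cells were taken as 1 sample, at 496 CPM in Control and 280 in TBI (log2 ratio -0.82, -0.86 to -0.78), where 8.39% of 16793 genes were that far below and 7.64% that far above. Astrocytes, where it was highest, made up 26.6% of Control and 14.8% of TBI cells. Within astrocytes its log2 ratio was -0.27, and by cluster it was -0.52 in the Syne1, Atp13a4 cluster, while the Agt, Ednrb cluster had 3152 and 3138 CPM. The clusters also held other shares of the class: the Chchd10, Mt3 cluster, with the lowest Dclk1, was 30.2% of Control and 42.3% of TBI astrocytes, and the Syne1, Atp13a4 cluster 28.0% and 18.8%. Shares of clusters and levels within them thus both enter the class value, as shares of classes enter that of all cells.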

How the data were processed

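Both libraries were deposited as tables of UMI counts per gene and cell barcode, which the authors made with Cell Ranger 3.0.2 on the mouse genome (GRCm38, mm10). The deposited counts are not normalized. Which table was Control and which TBI was taken from barcodes that the study lists by condition: all 356 Control and all 320 TBI barcodes were found in the matching table and 0 in the other. The tables held 3086 Control and 5081 TBI barcodes with 24723113 and 31543330 UMIs. The 10 genes and all gene lists were chosen with earlier results of these data known.

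Barcodes with at least 200 genes and within 3 median absolute deviations were kept. Clustering used Seurat 5.3.0 in R 4.3.3 (CCA, 2000 variable genes, 20 dimensions, resolution 3.0, then the lineage alone with 30 dimensions, 16 components, resolution 0.8), with Malat1 and the 10 genes left out, so that clusters were not defined by them. A cluster took the name of the marker list with the highest mean standardized level in it. After the clusters were seen, it was fixed that each lineage name goes first to 1 cluster by the largest total score. This held only if the score was within 0.2 of the best score of that cluster. It changed the name of 1 cluster, the Ung/Mcm3 progenitors, from the S-phase to the RG-like list. Clusters led by mitochondrial genes, and a mural cluster led by fibroblast genes (12 Control and 18 TBI cells), were left unnamed. Unnamed clusters held 90 Control and 162 TBI cells in all. Scrublet (scanpy 1.11.5) marked doublets, which stayed in unless stated. Levels are UMIs per 1000000 of the class without Malat1, with exact Poisson intervals, ratios have exact conditional binomial intervals, and shares of cells come from cells thinned to 2000 UMIs, with Clopper-Pearson intervals. A ratio needed 10 UMIs, and the threshold was 1.5-fold. These scripts ran in python 3.11.15 with numpy 2.4.6 and scipy 1.17.1 and were tested on simulated data. With 1 pooled library per condition no p-value was computed. All 10 genes were described. Likeness was ranked by Pearson correlation of log2(CPM + 10) in Control, over genes with at least 100 UMIs. Values of some genes that these rules would name are not reported here.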

Additional observations from a re-analysis of the deposited data

Results flagged for a closer look

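With all cells counted, the direction from Control to TBI differed between classes for Dclk1 and Dpysl3, and the difference between classes was not tested. The log2 ratio of Dclk1 was -0.78 in Reln neurons and 2.92 in microglia, where 17 of the 18 TBI UMIs lay in 1 called doublet. Without doublets it was -1.36 and -1.22 (1 UMI in each library of microglia), so the directions then did not differ. In Control Reln neurons, 27 of the 34 Dclk1 UMIs lay in 5 of 29 cells. That of Dpysl3 was 1.43 in OPC and 0.65 in oligodendrocytes but -1.55 in mural cells. In oligodendrocytes it was -0.02 without doublets, and -1.12 within the cluster led by Ptgds and Il33, which held 63 of the 84 TBI UMIs.

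A cluster of 52 Control and 114 TBI cells was left without a name and out of the classes above. It was nearest to immature granule neurons, was led by Sema5a and Camk2b, and was shallow, with a median of 1595.5 UMIs per cell and a median of 29.2% mitochondrial UMIs in Control and 21.0% in TBI. There 6 of 10 members stood above Control, where 51.1% of 4359 genes were, so the count is near that of genes at large. The log2 ratio was 1.42 for Stmn1 (503 and 1349 CPM), 1.63 for Stmn2 (123 and 380), 2.02 for Stmn4 (103 and 417), 0.99 for Dcx (257 and 509), 0.84 for Dpysl3 (174 and 313) and 1.44 for Dpysl2 (92.4 and 251). The median of all genes in that cluster was itself shifted by 0.64, and its part in these values was not tested.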

How the results depend on the processing

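No paired analysis was possible because each condition was 1 pooled library and cells could not be assigned to animals. In neuroblasts the log2 ratios of the 10 members stayed between -0.11 and 0.20 over 12 alternatives, and none reached 1.5-fold. Thinning every cell moved Stmn1 to 0.042, Dclk2 to 0.20 and Dpysl2 to 0.0041. The count of pairs of member and class at least 1.5-fold below Control went from 4 to 8 with cells limited to 10% mitochondrial UMIs, to 8 with doublets removed before clustering, to 9 with doublets removed and classes kept (chosen after seeing the data) and to 9 after thinning. The count above Control went from 26 to 17 after thinning and to 16 with at least 50 UMIs required. Shares over all genes under these settings were not computed. The class with the highest level was another in at least 1 alternative for 8 members. The highest class moved between the dividing progenitor classes for Stmn1, between the neuroblast classes for Dcx, Crmp1 and Dpysl3, and between Reln neurons and late neuroblasts for Stmn2. In Control it moved to late neuroblasts for Stmn3 (mean CPM of single cells) and, after thinning, to OPC for Dpysl2 and to the Ung/Mcm3 progenitors for Dclk2. At lower clustering resolution the Ung/Mcm3 progenitors could not be formed. In the other comparisons of a value with an alternative, ratios were judged by their counting interval and counts of members by a factor of 1.5. By these rules 478 comparisons stayed within and 59 moved. With 1 library per condition, differences between animals, sorts and captures cannot be told apart from injury.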
